A study of Caenorhabditis elegans with 2 samples.

Results

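Aminoacyl-tRNA synthetases are the enzymes that load each transfer RNA with its amino acid, and they were followed here in whole worms of Caenorhabditis elegans. They were found by name as every probe set of a single gene whose symbol is 1 lower-case letter followed by ars and a number. The letter is the 1-letter code of the amino acid. The rule gave 46 probe sets of 33 genes, out of 17118 gene symbols on the array, and no measured value entered it. Of the 33 genes, 12 have names of mitochondrial enzymes and 21 have names of cytosolic enzymes. Names ending in 2 were counted as mitochondrial and the others as cytosolic, except that aars-2 encodes the cytosolic alanyl enzyme and aars-1 the mitochondrial one.

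Worms of the wild-type strain N2 were profiled on 2 arrays, both labelled L4, the last larval stage. The a-SWCNT array held RNA of worms exposed from the first larval stage to 500 μg/mL of amide single-walled carbon nanotubes for 48 hr at 22 °C. The control array held RNA of worms grown for the same time at the same temperature without nanotubes. With 1 array per group, no value has a replicate error and no p-value can be given. Each value is a signal intensity per probe set, a brightness that depends on the probes as well as on the RNA. Signals of different genes are therefore not set against each other.

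The a-SWCNT array was dimmer throughout, with a trimmed mean of 84.3 against 211 on the control array, and its signals were multiplied by 2.50 before any comparison. All a-SWCNT signals given are after this scaling. A probe set counted as measured on an array where its signal reached a floor of 56.7, which is the median of the scaled worm signals on the 2 arrays, and dimmer signals were raised to it before the ratio was taken. The 1831 genes with several measured probe sets had log2 ratios that spread over a median of 0.46 between their probe sets, which gives a measure of the error within the arrays. Markers of germline, muscle, intestine, neurons and hypodermis were all measured. Germline markers were below 0 in log2 ratio in 7 of 10 genes, muscle markers in 3 of 3 and neuronal markers in 4 of 4, where 52.2% of all measured genes were below 0. The neuronal count depended on the scaling, and was 2 of 4 where the 75th percentiles of the arrays were made equal instead. At least 2-fold lower were 3 of the germline and 1 of the muscle markers, where 2.88% of all measured genes were. The summed signals on the a-SWCNT array were 5587 for germline, 9236 for muscle and 3959 for neurons, against 8044, 13694 and 4445 on the control array. Intestinal and hypodermal markers were above 0 in 3 of 4 genes each, with summed signals of 7584 and 20669 on the a-SWCNT array, against 5613 and 21434 on the control array. In each of these groups 1 marker was at least 2-fold higher, as were 133 of all 9382 measured genes. Where the arrays were scaled to spiked hybridisation controls instead, 2 intestinal and 1 hypodermal marker were above 0, as were 2487 of 9425 genes. The hypodermal sums came mostly from sqt-3, with 13466 and 4160 in a-SWCNT worms, against 13365 and 5517 in control worms. The part of these tissue differences in the values of the synthetases was not tested. In RNA of whole animals, fewer cells of a type and less RNA per cell cannot be told apart.

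A synthetase recognises its amino acid and the matching transfer RNA, joins them at the cost of ATP, and hands the charged transfer RNA to an elongation factor for delivery to the ribosome. Animal cells translate in 2 compartments. Cytosolic synthetases serve the proteins encoded in the nucleus, whereas mitochondrial synthetases, which are also made from nuclear genes and then imported, serve the few proteins encoded in mitochondrial DNA. For some amino acids, such as glycine and lysine in animals, a single gene gives the enzyme of both compartments. The glycyl and lysyl names found here, gars-1 and kars-1, were counted as cytosolic, so the groups are a split by name. Uncharged transfer RNA is the signal that the kinase GCN-2 reads when amino acids run short.

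After scaling, no measured synthetase transcript differed 2-fold between the arrays. Of the 46 probe sets, 36 were measured on both arrays, 2 on the a-SWCNT array alone and 8 on neither. On the a-SWCNT array, 0 of the 38 measured ones had a signal 2-fold or more above the control, and 0 had a signal 2-fold or more below it. Over all 12020 measured worm probe sets, the share past 2-fold was 1.36% on the higher and 4.43% on the lower side, so a count of 0 in 38 does not set the synthetases apart. At 1.5-fold, 3 probe sets were higher and 0 lower, where 8.22% of all measured probe sets were higher and 14.3% lower.

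**Figure D1:**
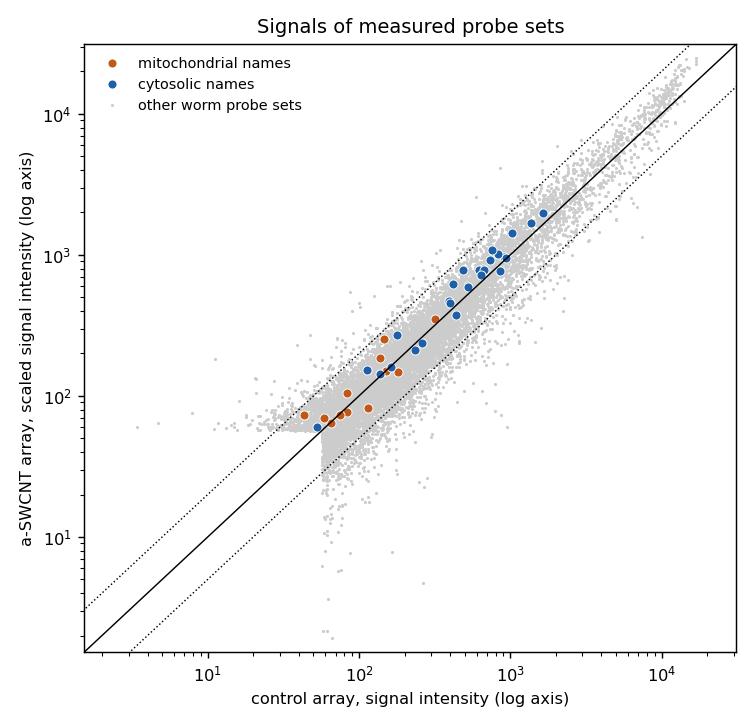
Scaled signal intensity on the a-SWCNT array (vertical, log axis) against signal intensity on the control array (horizontal, log axis) for probe sets measured on at least 1 array. Orange points are mitochondrial and blue points cytosolic synthetase names, grey points all other worm probe sets, the solid line marks equality and the dotted lines 2-fold differences; all 38 synthetase probe sets lie between the dotted lines.

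Most of the small differences had the same direction. Of the 31 synthetase genes measured, 23 (74.2%) had a log2 ratio above 0 and 8 below, against 47.8% above 0 among all 9382 measured genes. The excess lay mainly in cytosolic names, with 17 of 20 (85%) above 0. Of mitochondrial names 6 of 11 (54.5%) were, near the share of all genes. Their median log2 ratio was 0.22, where that of all genes was -0.02. The ratios of single genes ran from -0.48 for ears-2 to 0.67 for aars-2. Where the arrays were scaled to the spiked hybridisation controls, the median of all genes was -0.26 and that of the synthetases -0.0047. Over all synthetases together, the direction above 0 therefore holds relative to the other genes and depends on the scaling as an absolute statement.

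Mitochondrial names gave a median log2 ratio of 0.14 over 11 measured genes, with 6 (54.5%) above 0. Cytosolic names gave a median of 0.24 over 20 measured genes, with 17 (85%) above 0. Of all measured genes 47.8% were above 0, so with this scaling the mitochondrial share was near that of the array. With equal medians it was 8 of 11, where 5065 of 9376 genes were above 0. With equal 75th percentiles it was 9 of 11, where 5533 of 9394 genes were. With equal hybridisation controls it was 4 of 11, where 2487 of 9425 genes were. The difference of the medians, mitochondrial minus cytosolic, was -0.10, and without replicate arrays it has no error to be read against. The difference was -0.20 where both arrays had to be measured or no floor was set, -0.28 with the floor at the 25th percentile and -0.33 without probe sets that carry a letter suffix. It was smaller after quantile normalisation (-0.022), after loess centring (-0.03) and with the floor at the 75th percentile (-0.0096). Its size thus depended on the processing. The mitochondrial median itself turned to -0.12 with equal hybridisation controls, -0.018 with the lower floor and -0.028 without letter-suffix probe sets. The median of all genes was -0.26, 0.013 and -0.042 under the same settings. With the lower floor the mitochondrial median was thus below that of all genes. The medians also cover different amino acids. Of the probe sets of mitochondrial names 11 of 18 were measured on both arrays and 6 on neither, and of cytosolic names 25 of 28 were measured on both and 2 on neither. More of the mitochondrial values thus depend on where the floor is set.

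**Figure D2:**
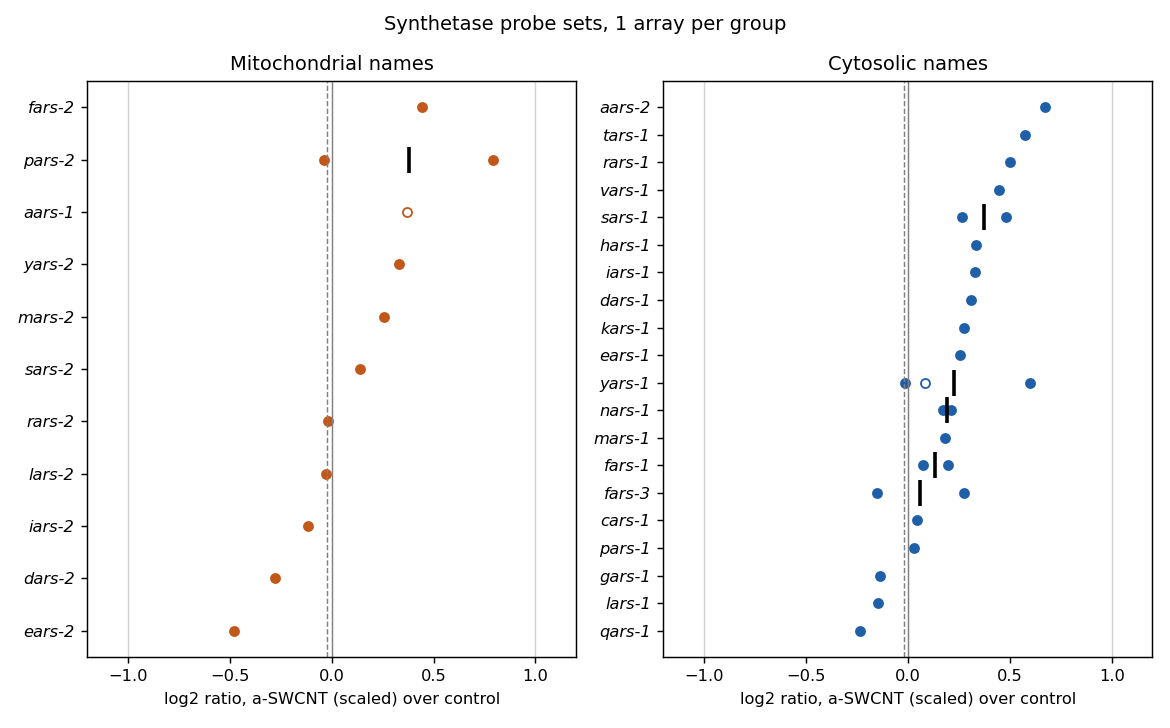
Log2 ratio of the scaled a-SWCNT signal over the control signal (horizontal) for each measured synthetase gene (rows), with mitochondrial names on the left and cytosolic names on the right. Each circle is a probe set, open where the control signal was below the floor so that the ratio is a lower bound, black bars are gene means where several probe sets were measured, the dashed line is the median of all genes at -0.02, and the pale lines mark 2-fold.

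Among mitochondrial names, the lowest ratio belonged to ears-2, which encodes the glutamyl enzyme. Its signal was 82.0 on the a-SWCNT array and 114 on the control array, 1.39-fold lower. The aspartyl gene dars-2 had 148 in a-SWCNT worms and 180 in control worms, 1.21-fold lower. These 2 genes stayed below 0 under all 6 scalings of the arrays that were tried. Their ratios lay at percentiles 16.0 and 28.5 of all measured genes, within the bulk of the array.

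The next mitochondrial names were level. The isoleucyl gene iars-2 had signals of 76.7 in a-SWCNT and 83.2 in control worms (-0.12 in log2), and neither array reached the floor in its other probe set. For the leucyl gene lars-2 the signals were 63.8 and 65.1 in the same order (-0.03), just above the floor. The arginyl gene rars-2 had 150 in a-SWCNT and 152 in control worms (-0.02). All 3 changed sign between scalings, and so did the seryl gene sars-2, with 349 in a-SWCNT and 317 in control worms (0.14).

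The highest mitochondrial names were fars-2, pars-2, aars-1 and yars-2. The phenylalanyl gene fars-2 had 186 in a-SWCNT and 137 in control worms, 1.36-fold higher, in the probe set that was measured. The prolyl gene pars-2 had probe sets that disagreed. One gave 255 in a-SWCNT and 147 in control worms, 1.73-fold higher and the highest ratio of any synthetase probe set, while the other gave 73.0 and 74.9 in the same order. The brighter of them is of a type that can bind more than 1 transcript, and the mean of 0.38 in log2 rests on the choice between them. The alanyl gene aars-1 reached the floor on the a-SWCNT array alone, with 73.3 against 43.0 in control worms, and was at least 1.29-fold higher. That probe set is also of a type that can bind more than 1 transcript, marked by a letter suffix. Such a suffix was carried by 9 of the 18 probe sets of mitochondrial names and 16 of the 28 of cytosolic names. Among them were the only probe sets of yars-2, tars-1, rars-1, qars-1, lars-1 and gars-1. The other probe set of aars-1 was below the floor on both arrays, with 44.2 in a-SWCNT and 32.0 in control worms. The tyrosyl gene yars-2 had 105 in a-SWCNT and 83.3 in control worms, 1.26-fold higher. The methionyl gene mars-2 had 70.3 in a-SWCNT and 58.7 in control worms in the probe set measured (0.26, with a sign that depended on the scaling), and a pair of further probe sets were below the floor on both arrays. No ratio could be taken for the cysteinyl name cars-2, which was below the floor on both arrays and which RefSeq lists as a pseudogene.

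Among cytosolic names the alanyl gene aars-2 stood highest. Its signal was 781 in a-SWCNT worms and 491 in control worms, 1.59-fold higher, at percentile 94.3 of all measured genes. Its other probe set was far below the floor on both arrays. The threonyl gene tars-1 followed, with 620 in a-SWCNT and 415 in control worms, 1.49-fold higher. The arginyl gene rars-1 had 1078 in a-SWCNT and 763 in control worms, 1.41-fold higher. The valyl gene vars-1 had 154 in a-SWCNT and 113 in control worms, 1.36-fold higher. These 4 genes were above 0 under all 6 scalings of the arrays.

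The gene name vars-1 does not settle the compartment of its product. In C. elegans a valyl-tRNA synthetase is also encoded by glp-4, a gene known for the sterility of its mutants, which has no synthetase name and so was not a member. The signal of glp-4, looked at after the other values were seen, was 273 in a-SWCNT and 166 in control worms, 1.64-fold higher. Both valyl genes were thus on the higher side. Counting glp-4 as cytosolic and vars-1 as mitochondrial gave medians of 0.20 for mitochondrial and 0.24 for cytosolic names.

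Several bright cytosolic names were higher by about the median of their group. Both probe sets of the seryl gene sars-1 were above 0. They gave 1983 and 1438 in a-SWCNT worms, against 1651 and 1030 in control worms. The aspartyl gene dars-1 had 1693 in a-SWCNT and 1366 in control worms (0.31 in log2). The histidyl gene hars-1, with 926 in a-SWCNT and 736 in control worms, and the isoleucyl gene iars-1, with 781 and 622 in the same order, both stood at 0.33. The lysyl gene kars-1 had 1008 in a-SWCNT and 834 in control worms (0.27), and the glutamyl gene ears-1 had 468 in a-SWCNT and 392 in control worms (0.25). These genes were above 0 in all 6 scalings, except ears-1, which was at -0.0047 with equal hybridisation controls.

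Cytosolic names nearer to 0 included the asparaginyl, methionyl, phenylalanyl, cysteinyl and prolyl genes. The probe sets of nars-1 gave 778 and 725 in a-SWCNT worms, against 672 and 644 in control worms, and those values differed by only 0.04 in log2 ratio. The signal of mars-1 was 595 in a-SWCNT and 525 in control worms (0.18). The cytosolic phenylalanyl enzyme is built from different subunits, encoded by fars-1 and fars-3. Their mean log2 ratios were 0.13 and 0.06, although the probe sets of fars-3 pointed in opposite directions, at -0.15 and 0.27. The signal of cars-1 was 143 in a-SWCNT and 139 in control worms, and that of pars-1 was 956 in a-SWCNT and 936 in control worms. The signs of all 6 of these genes changed with equal hybridisation controls.

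Only qars-1, lars-1 and gars-1 were below 0 among the 20 cytosolic names measured. The glutaminyl gene qars-1 had 373 in a-SWCNT and 440 in control worms, 1.18-fold lower. The leucyl gene lars-1 had 213 in a-SWCNT and 236 in control worms, 1.11-fold lower. The glycyl gene gars-1 had 239 in a-SWCNT and 262 in control worms (-0.14 in log2). These 3 kept their sign under all 6 scalings. For the tyrosyl gene yars-1, with a mean of 0.22 in log2, the size of the ratio depended on the probe set. Its probe sets gave 272 and 161 in a-SWCNT worms, against 179 and 162 in control worms, and a further one was at least 1.06-fold higher. The mean was above 0 in all 6 scalings, at its lowest 0.015. The tryptophanyl gene wars-1 was below the floor on both arrays, with 34.6 in a-SWCNT and 27.3 in control worms.

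Comparing both enzymes of the same amino acid removes the difference in amino acids between the groups. Of 12 amino acids with both names, 11 had both measured. The mitochondrial name had the lower log2 ratio in 6 of them and the higher in 5, with a median difference, mitochondrial minus cytosolic, of -0.23, or -0.067 after quantile normalisation and -0.099 where both arrays had to be measured. Alanine is among the 6, with 0.37 for aars-1 and 0.67 for aars-2. The aars-1 value is a lower bound, so the direction of this pair is not settled. The pairs furthest apart on that side were those for glutamate, with -0.48 for ears-2 and 0.25 for ears-1, for aspartate, with -0.28 for dars-2 and 0.31 for dars-1, and for arginine, with -0.02 for rars-2 and 0.50 for rars-1. On the other side stood proline, with 0.38 for pars-2 and 0.03 for pars-1, and phenylalanine, with 0.44 for fars-2 and a mean of 0.10 for fars-1 and fars-3. The split was 7 to 4 with the floor at the 25th percentile, where methionine turned, and with the brightest probe set of each gene, where tyrosine turned. It was 5 to 5 where both arrays had to be measured, and 3 to 1 in the 4 pairs left without letter-suffix probe sets, where proline turned. Without a floor it stayed at 6 to 5, but alanine and methionine turned.

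**Figure D3:**
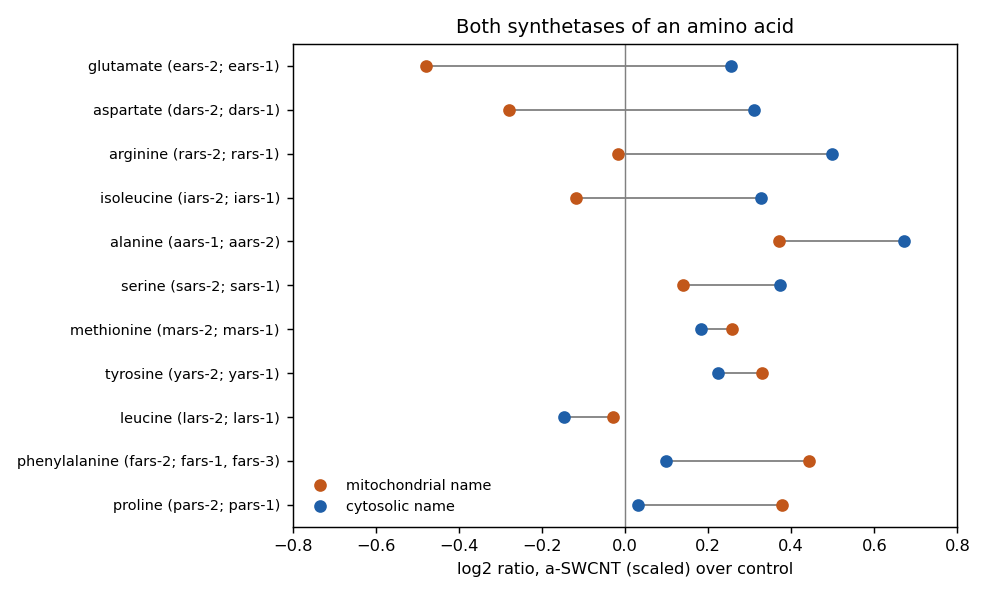
Log2 ratio of the scaled a-SWCNT signal over the control signal (horizontal) for the mitochondrial (orange) and the cytosolic (blue) name of each of 11 amino acids (rows), joined by a line. The mitochondrial name lies to the left in the upper 6 rows and to the right in the lower 5 rows, from glutamate with a difference of -0.73 to proline with 0.35. The aars-1 value in the alanine row is a lower bound, so the order in that row is not settled.

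Synthetases fall into 2 structural classes with unrelated catalytic folds, a grouping taken up after the values were seen. Among cytosolic names, class I genes had a median log2 ratio of 0.22 over 9 measured genes, and class II genes had 0.27 over 11. Among mitochondrial names, class I genes had a median of -0.02 with 2 of 6 above 0, and class II genes had 0.37 with 4 of 5 above 0. Of all measured genes 47.8% were above 0. The class I count depended on the scaling. With equal 75th percentiles it was 5 of 6 at a median of 0.11, and class II had 4 of 5 at 0.42, where 5533 of 9394 genes were above 0. The cytosolic classes hardly differed. The mitochondrial classes were further apart, but their medians rest on 6 and 5 genes, 1 of which is a bound.

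The machinery that uses charged transfer RNA gave medians of similar size. Cytosolic ribosomal proteins (rpl and rps) had a median log2 ratio of 0.34 over 74 measured genes, with 67 above 0, from rps-20 (-0.41) to rpl-14 (0.76). This median was 0.01 after quantile normalisation and 0.08 after loess centring, which treat bright signals differently, whereas that of the cytosolic synthetases was 0.24 under each. Mitochondrial ribosomal proteins (mrpl and mrps) had a median of 0.29 over 56 measured genes, with 46 above 0, from mrps-21 (-0.43) to mrps-33 (0.99). With equal hybridisation controls their median was 0.03, and that of the mitochondrial synthetases was -0.12.

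The elongation factors that carry charged transfer RNA and move the ribosome also had medians above 0. Cytosolic factors had a median of 0.18 over 6 genes, with 5 above 0, led by eef-1B.2, which helps recharge the carrier with GTP (3875 in a-SWCNT and 2058 in control worms, 1.88-fold higher). This median was -0.04 after loess centring and -0.08 with equal hybridisation controls. Mitochondrial factors had a median of 0.36 over 4 measured genes, with tsfm-1 at 0.46, tufm-1 at 0.39, gfm-1 at 0.33 and tufm-2 at -0.44. That median stayed above 0 in all 6 scalings, at its lowest 0.10.

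A list of genes for amino acid sensing and the signalling around it had a median below 0. Not all of its members are sensors. It held the initiation factor genes eif-2beta (-0.02) and eif-2gamma (-0.12). It also held the kinase gene pek-1 (-0.05), whose probe sets pointed in opposite directions, at -0.39 and 0.29. Of 11 measured genes 10 were below 0, where 52.2% of all measured genes were, 0 were at least 2-fold lower, and the median was -0.13. That count was 7 when the array medians were made equal and 6 when the 75th percentiles were, and 3 of the 11 were above the median of all genes. The lowest were daf-15, which encodes the Raptor subunit of the TOR complex, and let-363, which encodes the TOR kinase. The probe sets of daf-15 had log2 ratios of -0.84 and -0.90, the brighter with 134 in a-SWCNT and 240 in control worms. Those of let-363 had -0.50 and -0.46, the brighter with 127 in a-SWCNT and 180 in control worms. The kinase gene gcn-2 had 127 in a-SWCNT and 165 in control worms (-0.38), and atf-4, the transcription factor whose translation rises when GCN-2 is active, had 666 in a-SWCNT and 919 in control worms (-0.46). With the scaling used, only gcn-1, which is needed for GCN-2 activation, was above 0, at 0.19. The list median was below 0 in all 6 scalings, though at its highest it was -0.0056.

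Genes for the maturation of transfer RNA had no shared direction. Of 10 measured genes 4 were above and 6 below 0, at a median of -0.09 that turned positive under 3 of the 6 scalings. The lowest was elpc-3, the catalytic subunit of the Elongator complex that modifies wobble uridines, with 155 in a-SWCNT and 255 in control worms, 1.64-fold lower. The highest was mtcu-2, which acts in the modification of mitochondrial transfer RNA, with 103 in a-SWCNT and 70.3 in control worms, 1.46-fold higher. No gene of this list was 2-fold different.

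**Figure D4:**
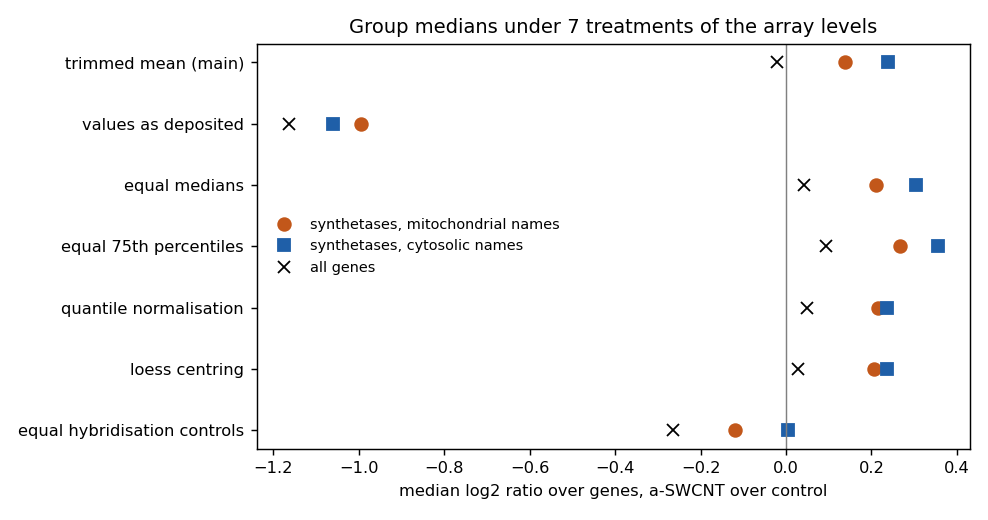
Median log2 ratio over genes (horizontal), a-SWCNT over control, for mitochondrial synthetase names (orange circles), cytosolic synthetase names (blue squares) and all measured genes (crosses) under 7 treatments of the array levels (rows). Both synthetase medians lie to the right of the median of all genes in every row, at 0.14 and 0.24 against -0.02 in the top row and at -0.12 and 0.0044 against -0.26 in the bottom row. The rows change the array levels only. With the floor at the 25th percentile, the mitochondrial median was -0.018 and that of all genes 0.013.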

How the data were processed

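Total RNA of whole worms was converted to biotin-labelled cRNA and hybridised to Affymetrix arrays, per the labels' protocols. The deposited value is a linear signal intensity for each probe set, made with MAS5, per the submitters' processing notes; for MAS5, the version, scaling target and detection calls are not given in the sources used here. The 2 arrays were grouped by their treatment label.

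The trimmed mean over all 22625 probe sets, without 2% of values at each end, differed 2.50-fold between the arrays, so the a-SWCNT array was scaled to the control array. Signals below the pooled median of the 22548 worm probe sets (56.7) were raised to it, and log2 ratios of a-SWCNT over control were taken. Scaling by 1 factor hides a change shared by most genes. A gene's value is the mean over its probe sets measured on at least 1 array. Ratios to the floor are lower bounds. Gene names came from the platform annotation, matched by gene identifier to the RefSeq table of WBcel235; 1 probe set shared by fars-2 and another gene was left out. Every member could be named. Of comparison lists, up to 2 highest and 2 lowest genes were named. The genes gcn-2, atf-4, pek-1, eif-2beta, eif-2gamma, gfm-1 and tufm-2 were chosen for naming after their values were seen. Members and lists were chosen with earlier results of these data known. The number of arrays limits the precision. Alternatives were other scalings, floors, fold thresholds and choices of probe sets. The steps were tested on simulated data with Python 3.11.15, pandas 2.3.3 and statsmodels 0.14.6. The recovery counted was that of 4-fold changes in bright probe sets, so it does not cover differences as small as those of the synthetases.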

Additional observations from a re-analysis of the deposited data

How the results depend on the processing

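No paired analysis was possible because there was 1 array per group and no test, and leaving out an array leaves no comparison. A median was counted as moved where it shifted by more than 0.1 in log2. As deposited, the medians were -0.99 for mitochondrial names, -1.06 for cytosolic names and -1.05 for all synthetases, the difference of medians was 0.066 (the floor clips dim unscaled a-SWCNT signals, since a single factor cannot move a difference), and 23 synthetase probe sets were at least 2-fold lower, as were 62.4% of all measured probe sets. With equal 75th percentiles these medians were 0.27, 0.36 and 0.33, and with equal hybridisation controls -0.12, 0.0044 and -0.0047, in the same order. The floor decided part of the mitochondrial value, whose median was -0.018 with the floor at the 25th percentile and 0.25 at the 75th, where only 2 mitochondrial names were left, and -0.028 without probe sets with a letter suffix in their identifier. The difference of medians, mitochondrial minus cytosolic, was -0.28 with the lower floor, -0.20 without a floor, -0.20 with both arrays measured and -0.33 without letter-suffix probe sets. It was -0.022 after quantile normalisation, -0.03 after loess centring and -0.0096 with the floor at the 75th percentile. These 3 were not counted as moved, because the limit of 0.1 is as large as the main difference of -0.10. Without a floor, 1 synthetase probe set was at least 2-fold higher (cars-2) and 1 at least 2-fold lower (iars-2), both very dim. At 1.5-fold, 3 were higher. Of 345 values of single genes under alternatives, 312 moved by less than the spread between probe sets of 1 gene (0.46). The other 33 were 31 as deposited and those of iars-2 and mars-2 without a floor. That spread is wider than the ratios of most synthetase genes, so a change of sign can stay within it. Of the 31 measured genes, 19 kept their sign under all 6 scalings. Reading vars-1 as mitochondrial and a stricter floor were alternatives chosen after seeing the data.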

Other observations

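In the reference gene table, yars-1 and mars-2 are immediate neighbours, as are cars-1 and cars-2. The log2 ratios of the first pair were 0.22 for yars-1 and 0.26 for mars-2, with 3 probe sets measured for yars-1 and 1 of 3 for mars-2. In the second pair only cars-1 was measured, at 0.04.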
